A study of Mus musculus with 2 samples.

Results

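The AP-1 and EGR immediate early factors are 10 genes: Jun, Junb and Jund of the JUN family, Fos, Fosb, Fosl1 and Fosl2 of the FOS family, the zinc finger genes Egr1 and Egr3, and Atf3. They were taken by gene symbol from the 55640 records of the deposited tables, and each symbol had 1 record. The tables come from RNA sequencing of LPC-HRas, a mouse line that the labels describe as hepatocellular carcinoma cells and that, by its name and the study's description, is a liver tumour line with HRas. One library came from cells infected with lentivirus carrying the control hairpin shRFP, and the other from the same cells infected with lentivirus carrying shETV4, a hairpin against the ETS factor gene Etv4. They are called control and knockdown below. Each group is a single library, so nothing could be tested against replicate spread, and every statement describes these 2 libraries. Whether the infected cells were a pool or a clone, and how long after infection they were harvested, the labels do not say.

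Immediate early genes are transcribed within minutes of a growth or stress signal, before any new protein is made. JUN and FOS proteins carry a basic region and a leucine zipper and bind DNA as pairs called AP-1. JUN proteins can pair with each other or with a FOS protein, whereas FOS proteins need a JUN partner. EGR proteins bind GC-rich sites through zinc fingers and are switched on through serum response factor and its ETS-domain partners downstream of RAS and ERK. ATF3 is a stress-induced relative of AP-1 that often represses transcription. In RAS-transformed cells FOSL1, also called FRA-1, is known as a lasting output of ERK signalling.

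Values are TPM, transcript abundance per length and relative to the library's total, so levels of different genes can be compared, but depth and counting error cannot be recovered. Where 2 values are given for a gene, the control comes first. Etv4 was at 73.2 TPM in the control and 16.2 TPM in the knockdown. Of the marker genes looked up, 0 of 8 for hepatocytes and 0 of 5 for endothelium reached 1 TPM. The hepatocyte genes Alb, Cyp2e1 and Fgb were listed at 0 in both libraries. The label of hepatocellular carcinoma cells was thus not accompanied by transcripts of these hepatocyte markers at 1 TPM or more. Of the progenitor or biliary markers 3 of 6 reached 1 TPM (Krt19, Sox9 and Spp1), and Krt7, Epcam and Prom1 did not. The list summed to 479 TPM in the control and 558 TPM in the knockdown, most of it Spp1 at 423 and 476 TPM. The stellate cell and fibroblast list had 4 of 6 at that level (Col1a1, Col3a1, Pdgfrb and Dcn). It summed to 634 and 855 TPM, most of it Col3a1 at 367.5 and 538 TPM, with Des under 1 TPM and Lrat at 0 in both. Immune markers had 1 of 7, with sums of 1.85 and 2.42 TPM and with Adgre1 and Cd3e among those at 0 in both. The part of such cells in the differences below was not tested, and in bulk RNA fewer cells expressing a gene and less RNA per cell cannot be told apart.

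Egr1, Egr3 and the JUN genes were higher in the shETV4 library, and Fos and Fosl1 were at nearly the same level in both. As plain ratios Egr1 and Egr3 were 2.03-fold and 2.05-fold higher, Junb 1.58-fold, Jun 1.40-fold and Jund 1.22-fold. Fos and Fosl1 were 1.04-fold and 1.06-fold higher, and Fosl2 was 1.17-fold lower. Differences are log2(TPM + 1) in shETV4 minus the same in shRFP, which understates the difference of low genes. Evaluated genes are those with 1 TPM or more in either library, and a call, higher or lower, means 2-fold or more on that scale. Of the 10 genes 9 were evaluated, Fosb being under 1 TPM in both libraries. None of the 9 was called higher, against 3.39% of 12968 evaluated genes, and none lower, against 7.06%. With the looser limit of 1.5-fold, Egr1, Egr3 and Junb, or 3 of 9, were past it upward, against 8.64% of all evaluated genes, and 0 downward, against 20.0%. Their median difference was 0.28, that of all evaluated genes -0.10. The difference was above 0 for 8 of the 9, and for 41.6% of all.

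**Figure D1:**
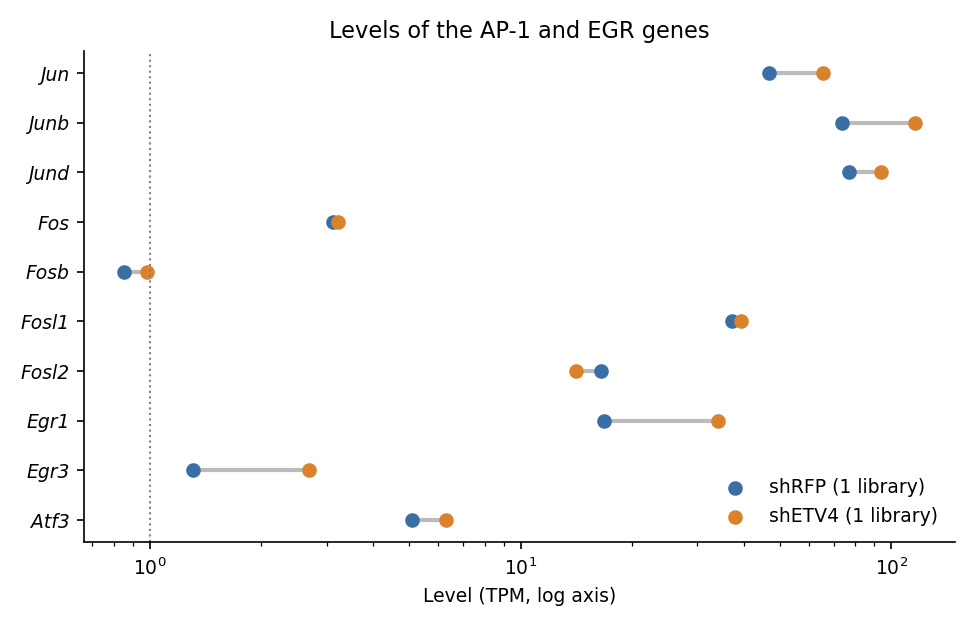
Levels of the 10 genes in TPM on a log axis, with 1 point for the shRFP library and 1 for the shETV4 library joined by a grey line; the dotted line is 1 TPM. Jund and Junb are the most abundant, Egr1 and Egr3 have the widest gaps, Fos and Fosl1 nearly coincide, and Fosl2 alone has its shETV4 point on the left.

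Egr1, the zinc finger factor that is the classic early readout of RAS and ERK signalling, was at 16.8 TPM in the control and 34.1 TPM in the knockdown. Its difference of 0.98 lay just inside 2-fold on the scale with a pseudocount of 1, although the plain ratio was 2.03, and it was the highest of the 10 genes, at rank 458 of 12968. Among the 4261 other evaluated genes within 2-fold of its mean level, 1.81% had a difference as high or higher, and 2.83% of the 954 that also lay within 2 percentage points of its GC content. Egr1 (ENSMUSG00000038418) lies on chromosome 18 of GRCm38 at 34859823 to 34864984 on the plus strand, and its exons overlap no exon of another gene.

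Egr3, a relative of Egr1 that EGR1 itself can induce, was at 1.31 and 2.69 TPM, a difference of 0.68. It was low in both libraries. Of 2358 genes within 2-fold of its mean level 11.6% were as high or higher, and of the 386 that also lay within 2 percentage points of its GC content 19.4%. The gene (ENSMUSG00000033730) lies on chromosome 14 at 70077203 to 70082614, plus strand. The other 2 genes of the family were looked up beside them. Egr2 was at 2.43 and 4.30 TPM, and Egr4 was listed at 0 with shRFP and at 0.09 TPM with shETV4. The 4 EGR genes summed to 20.5 TPM in the control and 41.15 TPM in the knockdown, most of it Egr1.

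The corepressors NAB1 and NAB2 bind EGR proteins and limit their activity, and Nab2 is an EGR target. Nab2 was at 36.8 TPM in the control and 51.4 TPM in the knockdown, a difference of 0.47. Nab1 went the other way, at 23.1 and 13.5 TPM, a difference of -0.74. Of the 4 genes on the list of other EGR genes and NAB corepressors 3 were evaluated and none was called. Egr2 and Nab2 were thus above 0 and Nab1 below it.

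Genes reported as EGR1 targets did not share a direction. Of 10 listed 8 were evaluated, 5 above 0 and 3 below, with a median of 0.28, or -0.15 over those reaching 5 TPM. F3, which encodes tissue factor, was at 79.9 TPM in the control and 36.8 TPM in the knockdown. It was among the 2 genes called lower, and none was called higher. The growth factor gene Pdgfa lay below 0 as well, at 9.86 and 5.56 TPM. Tgfb1 and the fibronectin gene Fn1 lay above 0, at 49.6 and 74.5 TPM and at 729 and 982 TPM. After the GC adjustment described below F3 was within 2-fold, at -0.82, and no gene of the list was past it.

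The JUN family was the most abundant part of AP-1 in both libraries. Junb, which in many settings restrains growth and is induced quickly by serum, was at 73.4 TPM in the control and 116 TPM in the knockdown, a difference of 0.65. Jun, the founding member and a target of the JNK kinases, was at 46.8 and 65.4 TPM, a difference of 0.48. Jund, the member that is expressed steadily rather than induced, was at 77.1 and 93.8 TPM, a difference of 0.28. All 3 were thus higher with shETV4, in the order Junb, Jun, Jund. Of the 63 other evaluated genes within 2 percentage points of the GC content of Jund, 47.6% had a difference as high or higher. Jund was the most abundant of the 10 genes with shRFP and Junb with shETV4, so the order at the top was not the same in the libraries; without replicates no spread can be set beside that change of order.

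The JUN genes have few exons. Jun (ENSMUSG00000052684, chromosome 4, 95049034 to 95052222, minus strand) and Jund (ENSMUSG00000071076, chromosome 8, 70698949 to 70700616, plus strand) are annotated in GENCODE M21 with 1 transcript of 1 exon. Junb (ENSMUSG00000052837, chromosome 8, 84974484 to 84978718, minus strand) has a transcript of 1 exon and another of 2. Of the exonic bases of Jund 52.6% lie within exons of the antisense gene Gm11175, which had 1.01 TPM in the control and was listed at 0 in the knockdown. Jun shares 7.28% with the antisense gene Junos, at 0.52 and 1.93 TPM, and Junb 7.52% with Prdx2, at 491 and 540 TPM. The sources used here do not say whether counting used strand, so reads from these pairs may not be told apart.

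FOS family transcripts were dominated by the FRA genes. Fosl1, which encodes FRA-1, was at 37.1 TPM in the control and 39.2 TPM in the knockdown, a difference of 0.08. Fosl2, which encodes FRA-2, was at 16.5 and 14.2 TPM, a difference of -0.21 and the only one of the 9 below 0. Fos itself, the fast and short-lived member, was low at 3.11 and 3.22 TPM, and Fosb, best known for its stable splice form in neurons, was at 0.85 and 0.98 TPM. Fosl1 and Fosl2 together made up 93.1% of the FOS family TPM with shRFP and 92.7% with shETV4.

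Fosl1 (ENSMUSG00000024912, chromosome 19, 5447547 to 5455946, plus strand) shares 57.2% of its exonic bases with Ccdc85b on the opposite strand, a gene at 18.8 and 21.6 TPM, so its level carries the same doubt about strand. Fos (ENSMUSG00000021250, chromosome 12, 85473890 to 85477273, plus strand), Fosb (ENSMUSG00000003545, chromosome 7, 19302696 to 19310051, minus strand) and Fosl2 (ENSMUSG00000029135, chromosome 5, 32135801 to 32157842, plus strand) share no exonic base with another gene.

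Set side by side, the families had different balances in the libraries. The 3 JUN genes summed to 197 TPM in the control and 275 TPM in the knockdown, 1.39-fold higher. The 4 FOS genes summed to 57.58 and 57.57 TPM. The FOS share of the combined TPM was therefore 22.6% with shRFP and 17.3% with shETV4, and there were 3.43 JUN transcripts for each FOS transcript in the former and 4.78 in the latter. Scaling a library does not alter such a share. The trend with GC content described below can alter it, and no share was computed after adjustment. Median GC content was 62.7% for the JUN genes and 55.9% for the evaluated FOS genes. The doubt about strand given above for Jund and Fosl1 applies to these sums as well. Without Junb and Fosl1 the FOS share was 14.2% and 10.3%, again lower with shETV4. They are the gene of each family with the highest level summed over both libraries. TPM counts transcripts, and protein levels and the pairs formed were not measured here.

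**Figure D2:**
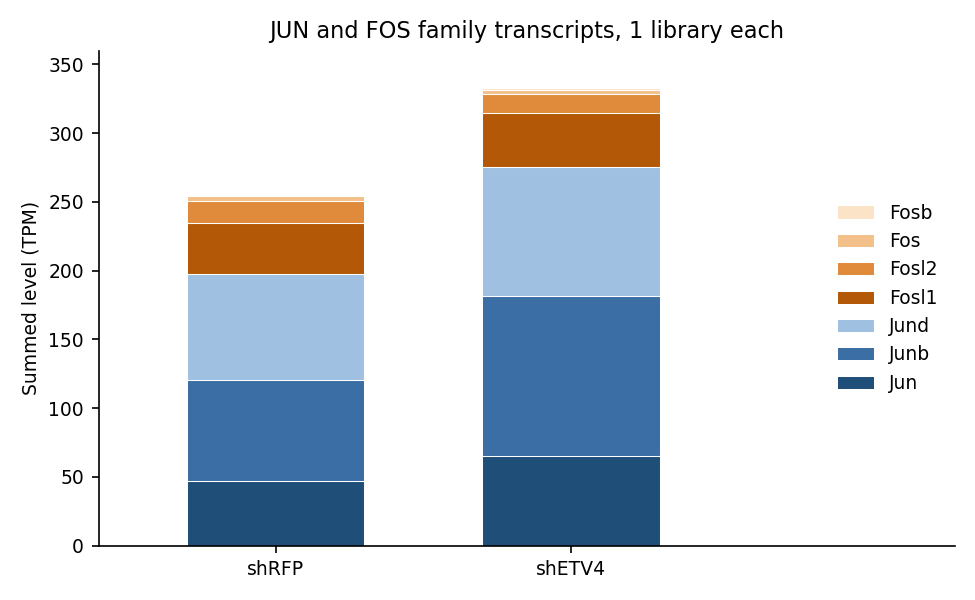
Stacked bars of the TPM of the 3 JUN genes (blues) and the 4 FOS genes (oranges) in the shRFP and shETV4 libraries, 1 library per bar, with the axis starting at 0. The blue part is 197 TPM high with shRFP and 275 TPM with shETV4, while the orange part is 57.58 and 57.57 TPM.

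Sequence before the start sites is shown for Jun and Junb, which were higher with shETV4, for Fos, which was not, and for Atf3, because AP-1 and ATF genes are known to be regulated through such sites. The stretches are RefSeq sequence of GRCm38.p6, end at the base before the RefSeq start site and run 5′ to 3′ on the strand of the gene, and capitals mark matches to the motifs named after them.
Jun, chr4:95052223-95052342, minus strand: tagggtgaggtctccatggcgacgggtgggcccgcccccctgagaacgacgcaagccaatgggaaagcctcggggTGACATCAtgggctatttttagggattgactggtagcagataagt
Junb, chr8:84978749-84978868, minus strand: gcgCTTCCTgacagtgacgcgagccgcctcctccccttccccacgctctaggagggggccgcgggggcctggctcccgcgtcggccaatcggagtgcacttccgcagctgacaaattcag
Fos, chr12:85473770-85473889, plus strand: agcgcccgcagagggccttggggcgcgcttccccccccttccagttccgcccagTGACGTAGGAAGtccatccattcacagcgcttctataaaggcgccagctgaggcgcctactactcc
Atf3, chr1:191183334-191183363, minus strand: cctggaagctattaatagcaTTACGTCAgc

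In Jun the capitals are TGACATCA, an 8-base relative of the AP-1 site, 45 to 38 bases before the start. In Fos they are the short CRE form TGACGT, 66 to 61 bases before the start. It is followed directly by AGGAAG, the letters searched for PEA3-type ETS factors such as ETV4. In Junb they are AGGAAG on the other strand, 117 to 112 bases before the start. In Atf3 they match TNACGTCA, 10 to 3 bases before the start, which also holds TGACGT on the other strand. On both strands of the 250 bases before 32851 RefSeq start sites, TGACATCA was found in 2.93% of windows, TGACGT in 6.47%, TNACGTCA in 2.52% and AGGAAG in 29.5%.

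Of the 10 genes 7 were matched in the RefSeq table, and Egr1, Egr3 and Fosl1 were not. None of the 7 windows held the AP-1 site TGANTCA, found in 6.75% of all windows, or the CArG box of serum response factor, found in 1.47%. The EGR site GCGNGGGCG, found in 4.70% of all, was in those of Fosb and Fosl2, 50 to 42 and 79 to 71 bases before the start. AGGAAG was thus in the windows of Junb, which was higher with shETV4, and of Fos, which was at nearly the same level. Other forms of ETS site were not searched. The shorter GGAA, read on either strand, also occurs unmarked in each printed stretch. The window of Jund ended 1210 bases from the GENCODE start of that gene and all 250 bases of that of Fosl2 were exonic in GENCODE, so for these 2 genes it may not be the promoter in use. The start site used for Atf3 lies 34706 bases from the GENCODE start of that gene and 7 bases from its nearest annotated transcript start, so 7 bases of the printed stretch are exonic there and overlap the marked letters. Matches of letters show no binding, and a missing match says only that the letters are not in the window.

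Atf3, the stress-induced repressor, was at 5.11 TPM in the control and 6.30 TPM in the knockdown, a difference of 0.26. It lies on chromosome 1 (ENSMUSG00000026628, 191170296 to 191218039, minus strand). Genes of the integrated stress response, the pathway through ATF4 that is known to induce Atf3, lay on both sides of 0. All 10 were evaluated, 6 above and 4 below, against 41.6% of all evaluated genes above 0. No gene of the list was called, and the median was 0.28. After the GC adjustment described below 8 of the 10 lay above 0, against 49.9% of all evaluated genes, with a median of 0.21. Atf4 and the asparagine synthetase gene Asns, the most abundant, were below 0, at 231 and 199 TPM and at 97.1 and 87.7 TPM. The ATF4 target genes Ddit3, which encodes CHOP, and Chac1 were above it, at 32.9 and 51.0 TPM and at 6.32 and 11.2 TPM.

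The differences followed base composition across all genes, and these 10 genes are rich in GC. The rank correlation of the difference with transcript GC content was 0.52 across 12947 evaluated genes, which share the 2 libraries and are not replicates. Median GC content was 55.9% for the 9 evaluated factors and 50.7% for all evaluated genes. Jund at 67.1%, Junb at 62.7% and Fosl1 at 61.1% stood above 99.7%, 98.5% and 97.1% of evaluated genes, and Atf3 at 50.9% was near the middle. Evaluated genes within 2 percentage points of the GC content of Junb had a median difference of 0.15, and those within 2 points of Egr1 0.11.

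With the median trend over 50 bins of GC content subtracted, Egr1 had a difference of 0.87, Egr3 0.56, Junb 0.48, Jun 0.36, Atf3 0.35 and Jund 0.08. Fosl1, Fos and Fosl2 came to -0.04, -0.08 and -0.25. After adjustment 6 of 9 lay above 0, against 49.9% of all evaluated genes, and Egr1 alone was past 1.5-fold, against 10.1% upward and 8.06% downward. None was past 2-fold, against 4.0% upward and 2.32% downward. Egr1 and Egr3 thus stayed above the JUN genes, and the JUN genes above the evaluated FOS genes, on the deposited and on the adjusted scale. Both scales use a pseudocount of 1, and the place of Egr3, which was low in both libraries, depends on it. With a pseudocount of 5 and no adjustment Egr3 was at 0.29, below Junb at 0.63 and Jun at 0.44, while Egr1 was at 0.84. The adjustment takes Jund from 0.28 to near 0.

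**Figure D3:**
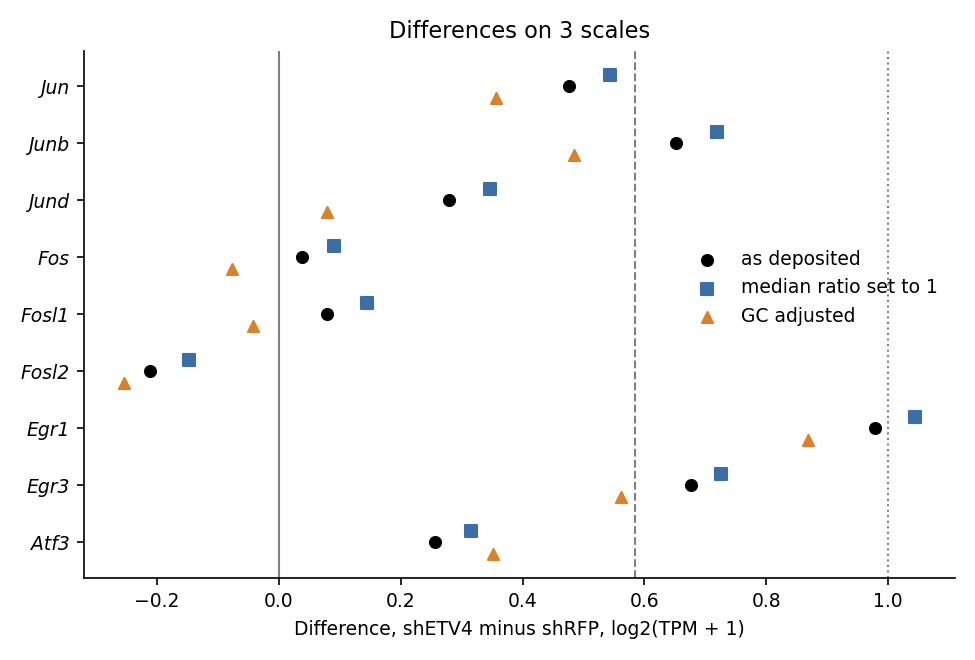
Difference of each of the 9 evaluated genes, shETV4 minus shRFP on the log2(TPM + 1) scale, as deposited (circles), with the median ratio of all genes set to 1 (squares) and with the GC trend subtracted (triangles); lines mark 0, 1.5-fold (dashed) and 2-fold (dotted). Egr1 passes 2-fold with the median ratio set to 1, at 1.04, and Fos and Fosl1 lie on either side of 0 depending on the scale.

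**Figure D4:**
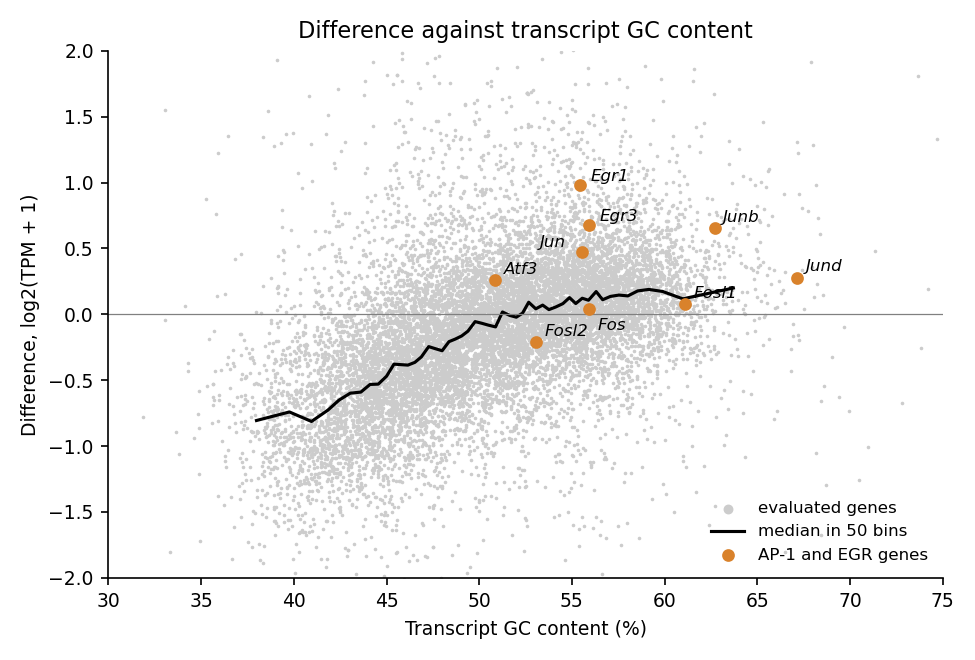
Difference on the log2(TPM + 1) scale against transcript GC content in percent, with 1 grey point per evaluated gene, the median in 50 bins as a black line and the 9 evaluated factors in orange; 165 genes lie beyond the axes. The line climbs from low to high GC content, Egr1, Egr3, Jun, Junb and Atf3 lie above it and Fos, Fosl1 and Fosl2 below it. Jund lies to the right of the line's end.

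Other bZIP factors that pair with AP-1 proteins or share their sites went both ways. Of 20 listed 18 were evaluated, 11 above 0 and 7 below, with a median of 0.20. Cebpb, a CCAAT-binding factor of the acute phase and interleukin responses, was at 14.4 TPM in the control and 37.1 TPM in the knockdown. At 2.57-fold it was the one gene of the list called higher, and none was called lower. Its relative Cebpd was at 27.6 and 52.0 TPM, a difference of 0.89 that was within 2-fold as deposited. After GC adjustment both were past 2-fold, at 1.11 and 1.06. The bZIP genes Atf2 and Creb1, which are poor in GC, had 20.1 and 10.3 TPM and 12.1 and 6.33 TPM. Their adjusted differences were -0.11 and -0.44.

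Serum response factor and its partners, which start transcription of Fos and Egr1, were all evaluated and none of the 6 was called. Srf was at 63.5 and 45.2 TPM, a difference of -0.48, and the ternary complex factor gene Elk3 at 35.6 and 27.8 TPM. Its relative Elk1 went the other way, at 21.8 and 29.6 TPM, a difference of 0.43 that was 0.68 after GC adjustment. Of the 6 genes 2 lay above 0 and 4 below, with a median of -0.11 beside the -0.10 of all evaluated genes.

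Of 15 kinases that act on AP-1 and EGR genes 14 were evaluated and none was called, with a median of -0.33, or -0.05 after GC adjustment. The ERK gene Mapk3, among the most abundant of them, was at 120 and 173 TPM. Mapk8, which encodes the kinase JNK1, was at 24.1 and 13.2 TPM, a difference of -0.82 that was -0.10 after adjustment.

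Factors that turn over AP-1 transcripts and proteins were all evaluated, 4 of 10 above 0 and 6 below, with a median of -0.14 and of 0.09 after GC adjustment. Itch, a ubiquitin ligase known to degrade JUN proteins, was at 15.8 and 7.39 TPM and was called lower right at the limit of 2-fold, a difference that became -0.36 after adjustment. It was the one called gene of the list.

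Other immediate early genes lay on both sides of 0. Of 24 listed 22 were evaluated, 14 above 0 and 8 below, against 41.6% of all evaluated genes above 0. The median of the list was 0.15 and that of all evaluated genes -0.10. After GC adjustment 13 of the 22 lay above 0, against 49.9% of all evaluated genes. Gem, a small GTP-binding protein gene, had 10.02 TPM in the control and 22.57 TPM in the knockdown, 2.25-fold higher and the list's one call. Ier2, Ier3 and the phosphatase gene Dusp1 lay above 0 like the JUN genes, at 45.4 and 65.3 TPM, at 64.1 and 101 TPM and at 5.99 and 10.1 TPM. Ccn1, a matricellular protein gene, was at 238 and 137 TPM, and the zinc finger gene Klf6 at 33.3 and 19.3 TPM. These 2 stayed below 0 after adjustment, at -0.87 and -0.56.

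Genes reported as AP-1 targets centred near 0. Of 16 listed 12 were evaluated, 5 above 0 and 7 below, none was called, and the median was -0.06. Vim and Spp1, the most abundant, had 4324 and 4104 TPM and 423 and 476 TPM. The interleukin gene Il6, poor in GC, had the lowest difference as deposited, at 5.24 and 2.46 TPM. That difference of -0.85 was -0.07 after GC adjustment. The collagenase gene Mmp13 was under 0.1 TPM in both libraries. Over all 9 of these other lists together, without the 10 factors, the median difference was 0.04.

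**Figure D5:**
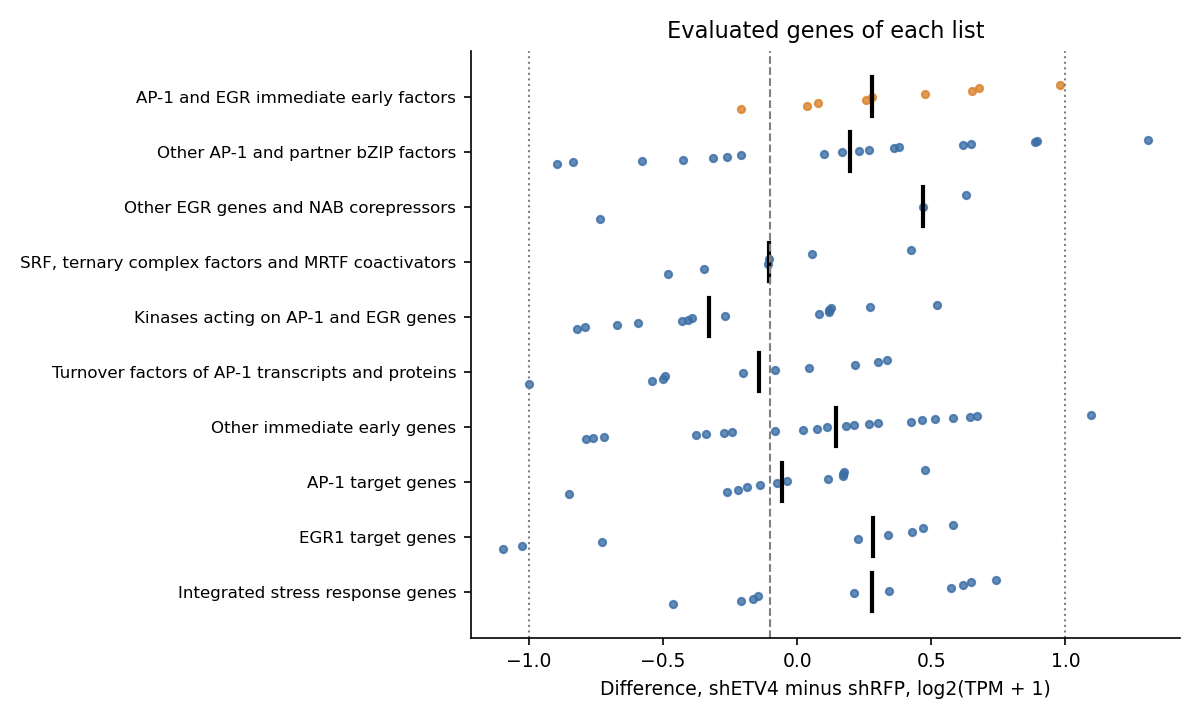
Difference of every evaluated gene of each list on the log2(TPM + 1) scale, 1 point per gene, the 9 evaluated AP-1 and EGR factors in orange and other lists in blue; black bars are list medians, the dashed line the median of all evaluated genes and the dotted lines 2-fold. The orange points reach from -0.21 to 0.98, and Cebpb and Gem are the 2 points past 2-fold upward.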

How the data were processed

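The authors deposited 1 value per gene for each of 2 libraries, read here as TPM because each column sums to 999999.77 (shRFP) or 999870.3 (shETV4); the headers name no unit. HISAT2, RSEM and GRCm38.p4 are named, without roles, per the submitters' processing notes. Neither the annotation nor the strand setting nor any filter is named in those sources. Libraries were prepared from total RNA with a TruSeq kit, per the labels' protocols. The 153 records without a symbol were left out, and 55487 remained.

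Differences used a pseudocount of 1, a minimum of 1 TPM in at least 1 library and a limit of 2-fold, with 1.5-fold as a looser limit. GC content (median over transcripts), exons and coordinates are from GENCODE M21 (GRCm38), which matched 99.4% of named records by identifier. With 1 library per group no p-value or interval was computed. Alternatives were pseudocounts of 0.1 and 5, no filter or 5 TPM, the median ratio or a trimmed mean of ratios (over genes with at least 5 TPM in both libraries, leaving out the outer 30% of ratios and the outer 5% of means on either side) scaled to 1, GC adjustment and protein-coding genes alone. The members, lists and motifs were chosen with earlier results of these data known. A rule named all 10 members and, from each list, its called genes or else its 2 most abundant (some genes are not reported here); Egr2, Egr4, Pdgfa, Tgfb1, Fn1, Ddit3, Chac1, Cebpd, Atf2, Creb1, Elk1, Mapk8, Ier2, Ier3, Dusp1, Ccn1, Klf6, Il6, Mmp13, Alb and the other markers were chosen after their values were seen. The calculations were tested on simulated data, with Python 3.11.15, numpy 2.4.6, pandas 2.3.3 and matplotlib 3.10.9.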

Additional observations from a re-analysis of the deposited data

How the results depend on the processing

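Depth is unknown and each group has 1 library, so the size of chance differences is unknown, most of all for Egr3, Fos and Fosb. The median difference of the AP-1 and EGR factors ran from 0.27 to 0.36 over all alternatives, and none was called lower under any. One, Egr1, was called higher with pseudocount 0.1 (1.02), with the median ratio set to 1 (1.04) and with the trimmed mean set to 1 (1.05); the counts were 1, 1 and 1 against 0 as deposited, because Egr1 lies at the limit. The count at 1.5-fold or more upward was 3 as deposited, 2 with pseudocount 5 or a minimum of 5 TPM, and 1 with GC adjustment; it was also 1 with a GC trend fitted on genes at 5 TPM or more, an alternative chosen after seeing the data. Egr3 ranged from 0.29 with pseudocount 5 to 0.98 with pseudocount 0.1. The FOS share without Junb and Fosl1 was 14.2% with shRFP and 10.3% with shETV4. On the log2 scale the median ratio was -0.07 and the trimmed mean -0.08, so setting either to 1 moves differences up. Over all evaluated genes 439 were called higher and 916 lower; the counts were 676 and 1461 with pseudocount 0.1, 167 and 267 with pseudocount 5, 252 and 690 at 5 TPM or more, 247 and 736 for protein-coding genes, 492 and 787 with the median ratio set to 1, 493 and 765 with the trimmed mean set to 1 and 518 and 300 with GC adjustment. After that adjustment the rank correlation with GC content was 0.005 over all evaluated genes and 0.05 at 5 TPM or more. No member had a second record, so summing records could give no other value. No paired analysis was possible because each group has 1 library.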
